A study of Mus musculus with 12 samples.

Results

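Delta cells, which lack a Tcf15 regulatory region on both alleles, were compared with wild-type (WT) cells after 24 h of induction towards epiblast-like cells, gene by gene and within each replicate pair. The libraries were chosen by their labelled genotype and time: 2 of delta and 2 of WT, 4 of the 12 RNA sequencing libraries in the series. Both derived from E14Tg2a, a mouse embryonic stem cell line of strain 129/Ola. Delta cells, labelled delta 0.7, had lost 674 bp of chromosome 2, from 152177049 to 152177722 (mm10), and all delta libraries bear 1 clone's name, which means that genotype and clone cannot be told apart. WT cells were E14Tg2a without the deletion. Before induction both were kept without serum in 2i with LIF, and both were then plated on fibronectin, in N2B27 to which Activin, bFGF and KOSR had been added, so that growth factors and coating were shared by the groups compared. The other 8 libraries came from the same lines at 0 h (still in 2i with LIF) and at 12 h, with 2 of delta and 2 of WT at each time.

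Naive embryonic stem cells held in 2i with LIF resemble the epiblast before implantation. When the inhibitors are withdrawn and FGF and Activin are given, the naive transcription factors (Nanog, Klf4, Esrrb, Tfcp2l1) decline and a formative set (Otx2, Pou3f1, Fgf5, Dnmt3b) comes on. Tcf15 encodes a basic helix-loop-helix factor that binds DNA together with E-proteins, is held back by Id proteins, and is known in the mouse embryo for its role in somite formation.

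The 24 h libraries held 14655269 and 12204825 reads for delta and 12174941 and 10600690 for WT, as recovered from the steps of the FPKM values, and 21415 and 22031 genes were above 0 in delta and 21249 and 21486 in WT. Core pluripotency genes summed to 2421.1 and 2321.4 FPKM in delta and 2415.6 and 2211.5 in WT. Lists that mark other fates ranged widely. Primitive endoderm summed to 5.77 and 12.0 FPKM in delta and 8.06 and 10.9 in WT. Primitive streak summed to 3.79 and 4.0 in delta and 4.56 and 2.88 in WT. Larger sums were those of neural genes (20.1 and 22.9 in delta, 28.0 and 19.3 in WT) and trophoblast genes (38.0 and 39.6, 51.5 and 36.3). So were those of fibroblast and smooth muscle genes (48.3 and 50.8, 114.5 and 53.1) and germline genes (306.9 and 229.5, 280.9 and 234.6). The trophoblast sum holds Krt8 (12.7 and 13.2 FPKM in delta, 18.9 and 15.6 in WT) and Krt18 (18.6 and 16.2, 18.2 and 7.31). Krt18 is also in the list of formative and primed epiblast markers. Mitochondrially encoded genes for proteins took 0.452% and 2.0% of reads in delta replicates 1 and 2 and 0.395% and 2.14% in WT replicates 1 and 2. The low share was that of replicate 1 in both lines. Ribosomal RNA and genes that hold rRNA-like sequence took 0.318% and 0.674% of reads in delta and 0.92% and 1.21% in WT. Separate cultures are not stated for the replicates, so p-values here rest on a spread between replicate libraries that may be technical. That spread was pooled over all 12 libraries, not taken from those of 24 h alone.

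Levels are in FPKM, a read count divided by gene length and by an effective library size. That size was 105.1% to 107.0% of recovered reads in the 24 h libraries. At 0 h it ran from 75.5% (delta replicate 1) to 99.97% (delta replicate 2). Differences are delta minus WT on the log2(FPKM + 1) scale, which understates the change of genes with low values, and are given with the standard error (SE) of a limma fit. The fit drew on all 12 libraries, with the uneven ones of 0 h, so an SE is not the scatter at 24 h alone. A gene was called when its p, adjusted by the Benjamini-Hochberg method over the 13981 genes tested, was under 0.05. At 24 h limma called 0 genes higher in delta (0.0%) and 1 lower (0.00715%), the imprinted gene Mest. An unadjusted p under 0.05 was reached by 104 genes on the higher side (0.744%) and 110 on the lower (0.787%), and with voom weights, where 1 was again called lower, by 70 (0.501%) and 104 (0.744%). With the 2 lines' replicates taken as pairs, Mest and Tcf15 were called lower (0.0143%) and 0 genes higher. Without the minimum level (FPKM of at least 1 in 2 libraries) 25580 genes were tested, and 12 were called higher and 8 lower. Each gene named below other than these 2 had an adjusted limma p of 1.0 at 24 h, so its values describe these libraries and are no call.

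The spread of the pair differences shows what these libraries could separate. Over all genes tested, the SD of the difference between delta and WT was 0.303 log2 units in pair 1 and 0.354 in pair 2, while replicates of the same line differed with an SD of 0.342 in delta and 0.395 in WT. The spread between the lines was thus close to that between replicates of a line. The median difference was 0.00 log2 units, with a median SE of 0.28. Delta was higher in both pairs for 3939 genes (28.2%) and lower in both for 3781 (27.0%). The delta libraries lay above both WT libraries for 1997 genes (14.3%) and below both for 2297 (16.4%). Both pairs passed 0.5 log2 units for 104 genes higher in delta (0.744%) and 156 lower (1.12%), and both passed 1 log2 unit for 9 higher (0.0644%) and 28 lower (0.2%).

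**Figure D1:**
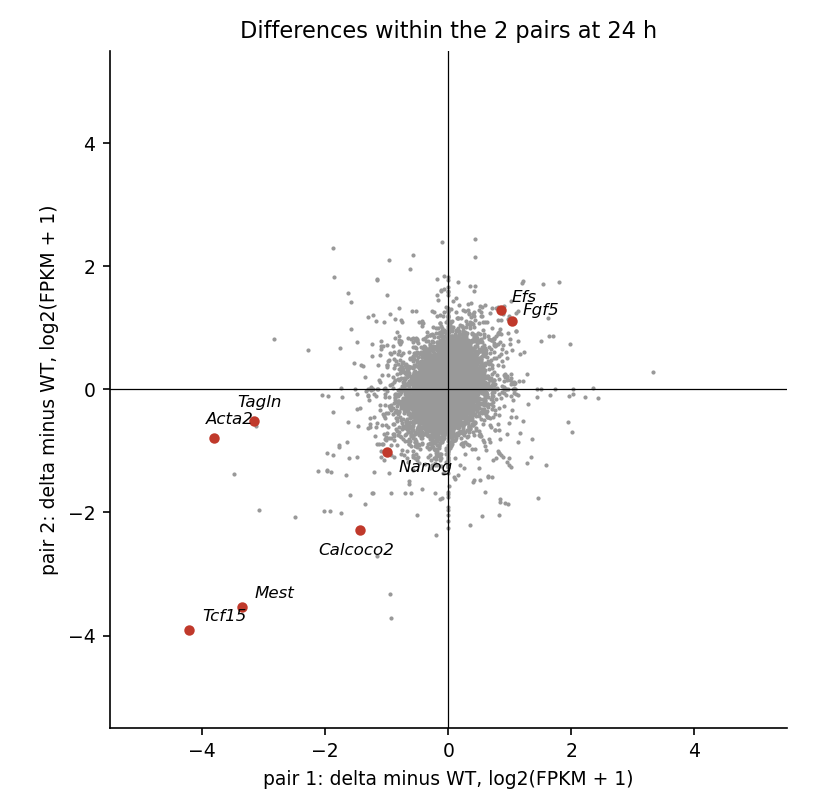
Difference of each of the 13981 genes at 24 h, delta minus WT in log2(FPKM + 1), in pair 1 (x axis) and pair 2 (y axis); red points are named genes. Tcf15 (−4.21 and −3.91) and Mest (−3.35 and −3.53) are far below 0 in both pairs, Acta2 and Tagln are far from 0 in pair 1 and nearer to it in pair 2, and most genes lie within 1 log2 unit of 0.

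Tcf15 (ENSMUSG00000068079; chromosome 2, 152143561 to 152149097, plus strand) was the target of the deletion, whose region begins 28.0 kb beyond the gene's end. Its level was 4.44 and 2.76 FPKM in delta, against 99.4 and 55.4 FPKM in WT. Both delta libraries were far below both WT libraries, and the WT mean was 21.5 times that of delta. The difference was −4.06 ± 0.47 log2 units (SE), −4.21 in pair 1 and −3.91 in pair 2, with an adjusted limma p of 0.0832 without a replicate block and 0.00122 with it. Over all settings tried the adjusted p ran from 0.000236 to 1.0, and it passed without WT 0 h replicate 1 (0.0465) or replicate 2 (0.0458). A low level remained in delta at 24 h, above the 1.06 and 1.04 FPKM in delta at 12 h. WT stood at 57.1 and 28.8 FPKM at 12 h. There Tcf15 was called lower in delta without a replicate block (−4.34, limma adjusted p = 0.0473). At 0 h it differed by −1.40 and was not called.

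No other gene near the deleted region was called. Of the 14 other genes tested within 500 kb of it, 8 lay below 0, with a median difference of −0.06 log2 units. Csnk2a1, a catalytic subunit of casein kinase 2 on the far side of the region, stood at 22.0 and 22.4 FPKM in delta and 24.4 and 24.1 in WT (−0.12 ± 0.21 log2 units, SE). Srxn1, the sulfiredoxin gene on the other side of Tcf15, stood at 14.6 and 17.1 FPKM in delta and 25.7 and 20.7 in WT, with libraries that did not overlap (−0.52 ± 0.19 log2 units). Trib3, a pseudokinase gene, had the lowest difference among the neighbours (−0.57 ± 0.25). The highest was that of Gm27343, an annotated small nuclear RNA at 2.06 and 1.23 FPKM in delta and listed at 0 in both WT libraries.

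Tcf15's partners and inhibitors gave no call. Of the 8 genes in that list, Tcf15 included, 7 lay below 0, and 3 had both delta libraries below both WT libraries (16.4% of all genes). The E-protein genes Tcf3, Tcf4 and Tcf12 differed by −0.17, −0.09 and 0.03 log2 units. Id4, one of the Id genes whose products block E-protein dimers, stood at 1.02 and 1.12 FPKM in delta and 1.69 and 1.91 in WT (−0.44 ± 0.21). Id2 differed by −0.45 ± 0.52. Id1 differed by −0.87 in pair 1 and by 0.34 in pair 2, and its difference of −0.27 turned to 0.10 without WT 24 h replicate 1. Id3, the most abundant Id gene at 26.4 and 17.3 FPKM in delta and 22.9 and 21.4 in WT, differed by −0.05.

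Mest (ENSMUSG00000051855; chromosome 6, 30723547 to 30748465, plus strand) fell in delta. This imprinted gene, active on the paternal allele, encodes an enzyme of the alpha/beta hydrolase family. Its level was 2.5 and 2.47 FPKM in delta, against 34.7 and 39.1 FPKM in WT, a mean 14.9 times as high in WT. The difference was −3.44 ± 0.20 log2 units (SE; limma, adjusted p = 0.000357), −3.35 in pair 1 and −3.53 in pair 2. The call held without each single library (adjusted p up to 0.0153) and was lost when the 24 h libraries were fitted alone (0.0528, the highest of all settings; lowest 0.000236). Earlier levels were 0.989 and 0.996 FPKM in delta and 8.98 and 7.28 in WT at 0 h, and 1.65 and 1.84 in delta and 14.8 and 20.7 in WT at 12 h. Mest was thus called lower in delta at 0 h (−2.19; limma, adjusted p = 0.0185) and at 12 h (−2.76; adjusted p = 0.00251) as well.

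The promoter sequence of Mest is shown because Mest was the called gene and because imprints are kept as methylation of CG dinucleotides. RefSeq (GRCm38.p6) lists 3 starts for Mest; the window printed, chr6:30737800-30738099 on the plus strand, holds 17 CG dinucleotides, marked in capitals, in 300 bases. Of 32851 promoter windows of that length, 31.4% hold as many, the median being 7 (CG reads the same on both strands). The microRNA gene Mir335 lies inside Mest, from 30741299 to 30741396, and overlaps 0 of its exons. Mir335 was listed at 0 in all 4 libraries at 24 h, but its level cannot be read from RNA selected with oligo-dT. Its mature 5′ strand is given with the seed, bases 2 to 8, in capitals, and is shown because its gene lies within Mest.
Mest promoter: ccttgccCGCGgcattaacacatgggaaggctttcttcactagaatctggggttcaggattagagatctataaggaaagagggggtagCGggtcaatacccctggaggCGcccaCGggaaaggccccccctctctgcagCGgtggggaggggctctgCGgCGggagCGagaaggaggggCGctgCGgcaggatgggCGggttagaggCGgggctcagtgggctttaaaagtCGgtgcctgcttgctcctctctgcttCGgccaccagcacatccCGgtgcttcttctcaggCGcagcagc
mmu-miR-335-5p: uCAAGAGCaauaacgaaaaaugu

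Copg2, which encodes a gamma subunit of the COPI vesicle coat, lies on the opposite strand, from 30747554 to 30896794, and its end overlaps that of Mest. It stood at 14.4 and 14.2 FPKM in delta and 22.5 and 24.5 in WT, with no overlap between the lines (−0.68 ± 0.17 log2 units, SE). At 12 h Copg2 differed by −0.30 and at 0 h by −0.04. The sources used here do not give whether counting used strand, and without it the reads of Mest and Copg2 in the overlap cannot be told apart. The 7 other genes tested within 500 kb of Mest, Copg2 among them, had a median of −0.06, and the nearest on the left, the centrosomal gene Cep41, differed by 0.02 (3.69 and 4.27 FPKM in delta, 3.64 and 4.22 in WT).

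Other imprinted genes were not called. Of 17 tested genes expressed from the paternal allele, 1 fell (Mest) and 0 rose; 11 lay below 0, with a median of −0.11 log2 units. Igf2, the fetal growth factor, was low in every library, at 0.0681 and 0.419 FPKM in delta and 2.92 and 0.832 in WT (−1.12 ± 0.64). Its WT libraries lay far apart from each other. WT replicate 1 was also the higher at 12 h (3.59 and 0.805 FPKM) and at 0 h (4.16 and 0.376). Snrpn, a spliceosome gene, stood at 96.7 and 97.7 FPKM in delta and 78.0 and 73.1 in WT (0.36 ± 0.29), and Impact, a translation regulator, at 36.6 and 29.4 in delta and 40.7 and 40.3 in WT (−0.30 ± 0.17). Of 16 tested genes expressed from the maternal allele, 8 lay above 0 and 8 below, with a median of 0.04. Ascl2, a basic helix-loop-helix factor of the placenta, stood at 2.0 and 1.33 FPKM in delta and 3.37 and 4.08 in WT (−0.83 ± 0.28), and the long noncoding RNA Rian at 6.86 and 5.13 in delta and 4.99 and 3.49 in WT (0.42 ± 0.26). Without WT 24 h replicate 1 the paternal and maternal medians were 0.01 and −0.02.

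**Figure D2:**
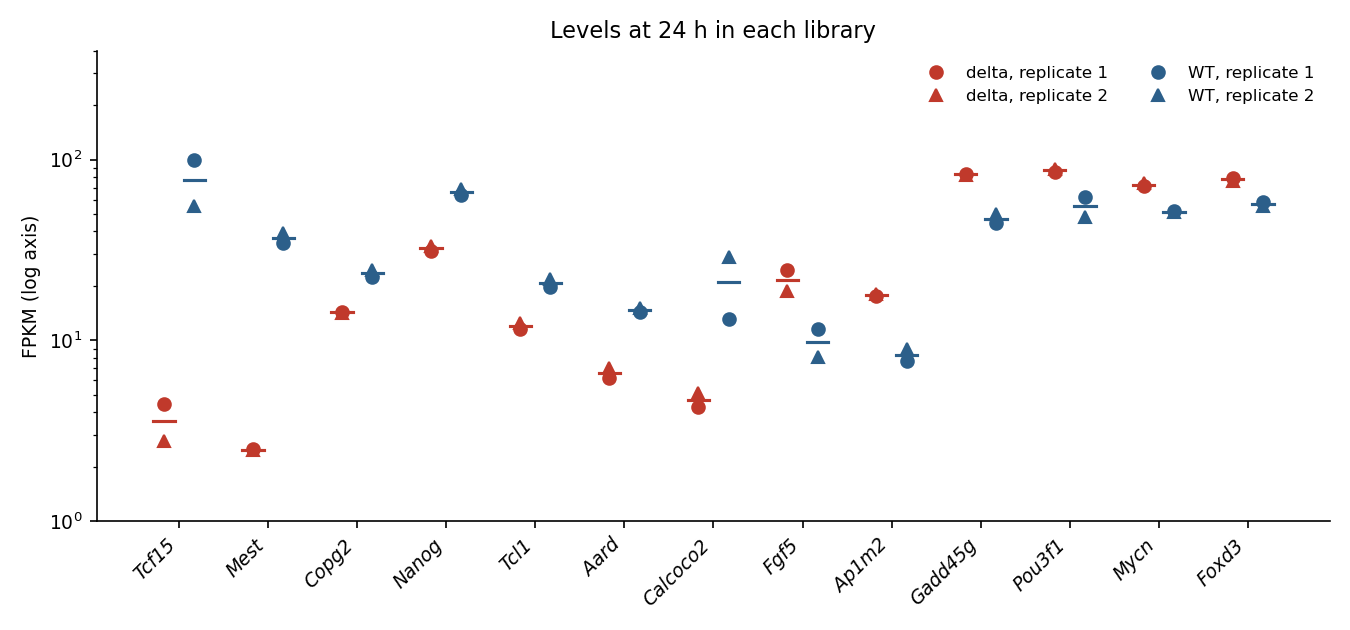
FPKM (log axis) of 13 genes in the 4 libraries at 24 h, delta in red to the left of WT in blue, circles for replicate 1, triangles for replicate 2 and bars for the mean of a line. For each gene shown both delta libraries lie on one side of both WT libraries, with the widest gaps at Tcf15 and Mest. Several of these genes were named by a rule that requires such a gap. Over all genes tested, both delta libraries lay above both WT libraries for 14.3% and below for 16.4%.

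Naive pluripotency factors were mostly lower in delta, without any call. Of 15 tested transcription factors of the naive state, 0 passed the test, 13 lay below 0, 12 were lower in both pairs (27.0% of all genes) and 11 had both delta libraries below both WT libraries (16.4% of all genes). The median difference was −0.41 log2 units, −0.59 in pair 1 and −0.44 in pair 2, against 0.00 for all genes. Their summed level was 504.0 and 494.4 FPKM in delta and 673.7 and 663.5 in WT. The same list had a median of 0.01 at 0 h and 0.06 at 12 h.

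Nanog, the homeobox factor of the naive epiblast, had the smallest p of that list. It stood at 31.1 and 33.4 FPKM in delta and 63.3 and 68.5 in WT at 24 h, a mean 2.04 times as high in WT (−1.01 ± 0.24 log2 units, SE; −1.0 and −1.01 in the pairs). The lines overlapped earlier: at 12 h Nanog was at 191.0 and 197.4 FPKM in delta and 197.6 and 192.9 in WT. At 0 h it was at 417.5 and 254.8 FPKM in delta and 335.3 and 281.9 in WT. The difference at 24 h minus that at 0 h was −1.09 (95% interval −1.85 to −0.33), and minus that at 12 h it was −1.0 (−1.76 to −0.24), with an adjusted limma p of 1.0 for both.

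Among the other naive factors Tfcp2l1, a factor induced by STAT3, stood at 3.5 and 4.53 FPKM in delta and 7.34 and 8.12 in WT (−0.81 ± 0.45). Tbx3, a T-box factor, stood at 2.3 and 5.18 in delta and 5.81 and 7.36 in WT (−0.74 ± 0.40), and the nuclear receptor gene Nr5a2 at 2.21 and 3.66 in delta and 3.67 and 5.71 in WT (−0.53 ± 0.26). Tbx3 kept delta below WT in spite of the wide delta spread, as did Nr5a2 by a small margin. Klf4 overlapped between the lines (4.24 and 8.19 FPKM in delta, 8.14 and 13.9 in WT). Esrrb, an orphan nuclear receptor gene, stood at 23.0 and 28.8 FPKM in delta and 35.1 and 39.6 in WT (−0.52 ± 0.42). Tfe3 and Zfp281, which act in the exit from the naive state, were the only 2 members of the list above 0, at 0.16 and 0.09 log2 units.

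Of 16 other naive markers, 0 passed the test and 12 lay below 0, with a median of −0.22 log2 units, −0.15 at 0 h and 0.00 at 12 h. Leaving out WT 24 h replicate 1 gave a median of −0.14, and leaving out delta 24 h replicate 2 gave −0.15. Tcl1, a coactivator of AKT, stood at 11.6 and 12.5 FPKM in delta and 19.6 and 21.7 in WT (−0.73 ± 0.15). Tcl1 differed by −0.03 at 12 h and −0.18 at 0 h. Crxos, a homeobox gene, stood at 1.76 and 1.81 FPKM in delta and 3.35 and 4.0 in WT (−0.75 ± 0.26). Dppa3 and Jam2 differed by −0.49 ± 0.33 and −0.43 ± 0.22. The abundant naive marker Dppa5a, in contrast, differed by 0.02.

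Core pluripotency genes, shared by naive and later pluripotent cells, were close between the lines. Of 14 members 0 passed the test, 10 lay above 0 and 4 below, with a median of 0.08 log2 units (0.01 when WT 24 h replicate 2 was left out, and 0.14 when delta 24 h replicate 1 was). Pou5f1 stood at 681.0 and 575.0 FPKM in delta and 677.0 and 587.0 in WT, and Sox2 at 213.0 and 225.0 in delta and 229.0 and 233.0 in WT. The highest member was Lin28b, a blocker of let-7 processing, at 1.63 and 1.59 FPKM in delta and 1.24 and 0.604 in WT (0.46 ± 0.25). Zic2, Tdgf1 and Zscan10 differed by 0.35, 0.25 and 0.25.

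Formative factors lay mostly above 0 in delta, again without any call. Of 15 tested transcription factors of the formative epiblast, 0 passed the test, 13 lay above 0 and 2 below, and 11 had both delta libraries above both WT libraries (14.3% of all genes). The median difference was 0.31 log2 units, 0.24 in pair 1 and 0.37 in pair 2. It was −0.03 at 0 h and 0.28 at 12 h, and at 24 h it was 0.16 without WT 24 h replicate 2. Their summed level was 528.4 and 522.9 FPKM in delta and 450.2 and 401.8 in WT.

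Pou3f1, which encodes the POU factor Oct6, stood at 85.1 and 89.1 FPKM in delta and 61.8 and 48.2 in WT (0.66 ± 0.38). Foxd3, a forkhead factor, stood at 79.4 and 75.9 in delta and 58.0 and 55.3 in WT (0.45 ± 0.27), and Otx2, a homeobox factor, at 71.2 and 60.1 in delta and 50.7 and 34.2 in WT (0.64 ± 0.73). All of these kept the delta libraries above those of WT. Sall2, a zinc finger gene, stood at 24.1 and 24.4 FPKM in delta and 16.4 and 9.59 in WT (0.90 ± 0.42), 0.53 in pair 1 and 1.26 in pair 2. Hes6 and Lef1 differed by 0.44 ± 0.26 and 0.59 ± 0.42. The lowest of the list was Etv4, an ETS factor induced by ERK, at 23.1 and 28.1 FPKM in delta and 35.7 and 48.1 in WT (−0.68 ± 0.43). Etv4 had already differed by −2.28 at 0 h.

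Among the other formative and primed epiblast markers, Fgf5 had the smallest p. Fgf5 encodes the FGF ligand that marks the postimplantation epiblast. It stood at 24.6 and 18.7 FPKM in delta and 11.5 and 8.11 in WT, a mean 2.21 times as high in delta (1.08 ± 0.24 log2 units, SE; 1.04 and 1.11 in the pairs). At 12 h Fgf5 was at 0.642 and 0.232 FPKM in delta and 0.345 and 0.16 in WT, and at 0 h it was near 0 in both lines. Fgf5's difference at 24 h minus that at 0 h was 1.05 (95% interval 0.27 to 1.83), and minus that at 12 h it was 0.89 (0.11 to 1.67), with an adjusted limma p of 1.0 for both. All earlier Fgf5 values were below 1 FPKM, where the log2(FPKM + 1) scale understates a change. These intervals therefore do not show when the difference arose.

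Of the 20 tested members of this list 0 passed the test, 18 lay above 0 and 2 below, with a median of 0.27 log2 units (0.13 without WT 24 h replicate 2). Dnmt3b, a DNA methyltransferase that writes new marks, stood at 276.9 and 282.7 FPKM in delta and 222.8 and 213.7 in WT (0.36 ± 0.23). Dnmt3a stood at 52.2 and 48.4 in delta and 45.8 and 23.0 in WT (0.61 ± 0.54), with most of its difference in pair 2. Fgf15 differed by 0.53 ± 0.25 and Krt18 by 0.54 ± 0.41, but Krt18 by −0.06 without WT 24 h replicate 2. Prtg and Fn1 were the 2 members below 0. Among the 9 tested writers and erasers of DNA methylation 0 passed the test and the median was 0.03; Tet2, an eraser, stood at 1.75 and 1.87 FPKM in delta and 2.96 and 2.99 in WT (−0.50 ± 0.40), and Uhrf1, which recruits the maintenance enzyme, differed by −0.21 ± 0.25.

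The promoters of Nanog and Fgf5 are shown because they had the smallest p of the naive factors and of the formative markers and differed in opposite directions. The motif searched was CANNTG, the E-box to which basic helix-loop-helix dimers bind, which reads as CANNTG on both strands and is in capitals; 72.3% of all 32851 RefSeq promoter windows of this length hold at least 1. The Nanog window is chr6:122707239-122707538 and holds 1, and the Fgf5 window is chr5:98253934-98254233 and holds 0 (both plus strand, GRCm38.p6).
Nanog promoter: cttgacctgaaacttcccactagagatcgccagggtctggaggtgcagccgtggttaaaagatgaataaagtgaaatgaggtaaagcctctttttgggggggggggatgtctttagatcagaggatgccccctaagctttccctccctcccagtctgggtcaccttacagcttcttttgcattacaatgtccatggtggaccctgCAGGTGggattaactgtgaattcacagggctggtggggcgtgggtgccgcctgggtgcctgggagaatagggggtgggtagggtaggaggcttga
Fgf5 promoter: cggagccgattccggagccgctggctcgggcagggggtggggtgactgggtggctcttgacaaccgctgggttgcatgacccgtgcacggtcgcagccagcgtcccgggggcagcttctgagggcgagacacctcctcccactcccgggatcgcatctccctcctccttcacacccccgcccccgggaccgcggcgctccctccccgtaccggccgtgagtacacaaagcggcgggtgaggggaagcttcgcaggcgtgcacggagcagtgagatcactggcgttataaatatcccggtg

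**Figure D3:**
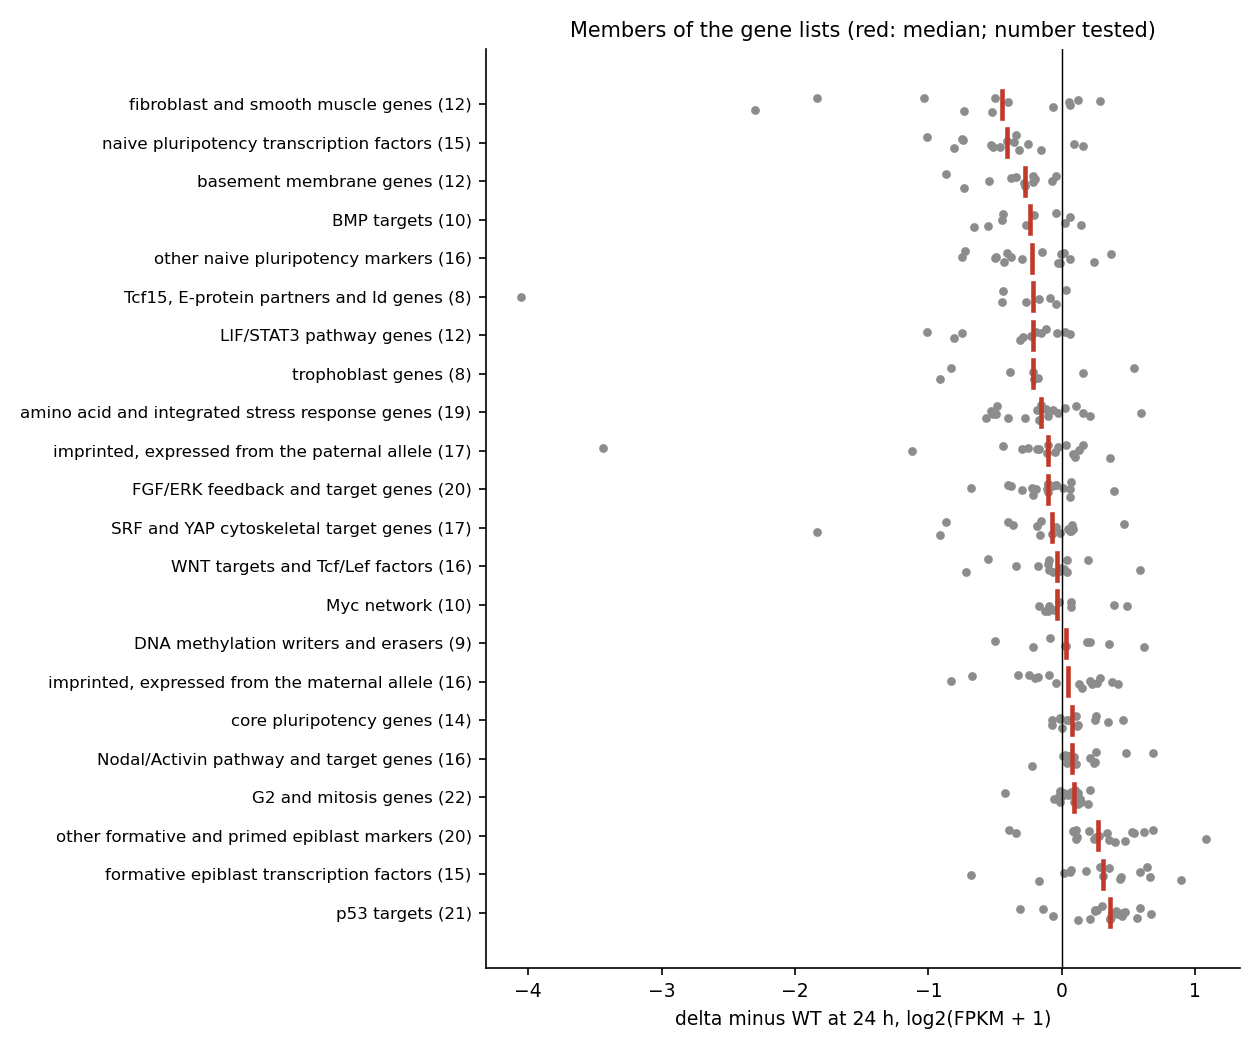
Difference at 24 h, delta minus WT in log2(FPKM + 1), for each tested member (grey points) of the 22 lists described, ordered by their median (red bar), with the number tested in brackets. The naive factors have a median of −0.41 and the formative factors of 0.31, and Mest and Tcf15 are the points farthest to the left.

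Pathways that act during the induction gave no call in either direction. LIF signals through STAT3 to hold the naive state; of 12 tested members of that list 10 lay below 0, with a median of −0.21 log2 units, −0.11 at 0 h and −0.05 at 12 h. The LIF co-receptor gene Il6st stood at 3.38 and 3.3 FPKM in delta and 4.63 and 4.16 in WT (−0.31 ± 0.17). Tfcp2l1 and Klf4 are in this list and among the naive factors, so the lists are not independent.

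FGF acts through ERK, whose targets include its own inhibitors. Of 20 such genes 15 lay below 0, with a median of −0.10 log2 units, which ran from −0.24 without WT 24 h replicate 2 to −0.04 without delta 24 h replicate 1. The Ras inhibitor gene Spred1 stood at 8.48 and 8.83 FPKM in delta and 11 and 10.7 in WT (−0.30 ± 0.17), while the ERK phosphatase genes Dusp4 and Dusp6 differed by 0.39 ± 0.31 and 0.06. Of 16 Nodal and Activin genes 15 lay above 0 by mostly small amounts, with a median of 0.08 (0.02 without WT 24 h replicate 2). Nodal, the ligand, stood at 30.7 and 40.3 FPKM in delta and 26.4 and 33.0 in WT (0.24 ± 0.39), and Skil, a SMAD inhibitor, differed by 0.48 ± 0.48.

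BMP targets and WNT targets were not called. Of 10 tested BMP targets 7 lay below 0, with a median of −0.24 log2 units, or 0.00 without WT 24 h replicate 1. Smad6, an inhibitory SMAD, stood at 0.932 and 1.11 FPKM in delta and 2.22 and 2.17 in WT (−0.66 ± 0.26), and Bmp4 at 3.1 and 5.56 in delta and 6.56 and 6.62 in WT (−0.55 ± 0.28). Of 16 WNT targets and Tcf/Lef factors 6 lay above 0 and 10 below, with a median of −0.04 that was 0.02 without WT 24 h replicate 1. Apcdd1, a WNT inhibitor, differed by −0.72 ± 0.47, and Lef1, which acts with beta-catenin, by 0.59 ± 0.42.

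Basement membrane genes all lay below 0, with small differences and no call. The 12 genes had a median of −0.28 log2 units; 11 were lower in both pairs (27.0% of all genes) and 7 had both delta libraries below both WT libraries (16.4% of all genes). The median was already −0.20 at 0 h and −0.32 at 12 h. Col4a1, a type IV collagen chain, stood at 0.34 and 0.821 FPKM in delta and 2.24 and 1.5 in WT (−0.87 ± 0.32). Nid1, a laminin linker, stood at 7.39 and 9.01 in delta and 14.7 and 13.9 in WT (−0.74 ± 0.40), and Sparc at 72.4 and 68.2 in delta and 86.2 and 77.8 in WT (−0.22 ± 0.27). The list's median was −0.48 without WT 24 h replicate 1, −0.16 without delta 24 h replicate 1 and −0.52 without delta 24 h replicate 2.

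Markers of fibroblasts and smooth muscle differed between the WT replicates. Summed over the list they stood at 48.3 and 50.8 FPKM in delta and 114.5 and 53.1 in WT, so that WT replicate 1 stood apart from the other libraries. Acta2, smooth muscle actin, was at 0.0365 and 0.261 FPKM in delta and 13.5 and 1.19 in WT, and Tagln, an actin binding protein of smooth muscle, at 0.819 and 1.17 in delta and 15.2 and 2.11 in WT. Of 12 tested members 0 were called and 8 lay below 0, with a median of −0.45 log2 units, −0.83 in pair 1 and −0.14 in pair 2. It was −0.23 without WT 24 h replicate 1 and −0.75 without WT 24 h replicate 2. The same WT number was high at 12 h (Acta2 at 14 and 0.787 FPKM in WT) and at 0 h (5.21 and 0.216). The part of these cells in the matrix, trophoblast and cytoskeletal differences was not tested.

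Cytoskeletal targets of SRF and YAP had a median of −0.07 log2 units over 17 tested members, which was 0.08 without WT 24 h replicate 1 and −0.39 without WT 24 h replicate 2, and 0 were called. The YAP targets Ctgf and Cyr61 stood at 4.13 and 7.0 FPKM (Ctgf) and 2.51 and 7.24 (Cyr61) in delta, against 9.47 and 12.9 (Ctgf) and 8.47 and 9.13 (Cyr61) in WT. Delta lay below WT in both pairs for each. Their differences at 0 h were of similar or larger size, −1.14 for Ctgf and −1.76 for Cyr61. Of 8 tested trophoblast genes 0 were called and 6 lay below 0, with a median of −0.21 (−0.06 without delta 24 h replicate 1 and −0.47 without delta 24 h replicate 2). Tead4, a TEAD factor of the trophectoderm that pluripotent cells also express, stood at 2.2 and 2.06 FPKM in delta and 5.45 and 4.41 in WT (−0.92 ± 0.26). The defining trophoblast gene Cdx2 was at 0.0862 and 0.0 FPKM in delta and 0.345 and 0.039 in WT. Krt18 had the highest difference of the trophoblast list, at 0.54 log2 units.

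Targets of p53 lay mostly above 0 in delta, and the size depended on the replicates. Of 21 tested targets 0 were called, 18 lay above 0 and 18 were higher in both pairs (28.2% of all genes), but only 3 had both delta libraries above both WT libraries (14.3% of all genes). The median was 0.36 log2 units, 0.44 in pair 1 and 0.20 in pair 2, and it stood at 0.28 at 0 h and 0.27 at 12 h. Levels differed between replicates in both lines: Cdkn1a, the cell cycle inhibitor p21, was at 23.4 and 35.1 FPKM in delta and 16.5 and 29.4 in WT, and Ccng1 at 87.3 and 107.3 in delta and 44.4 and 92.9 in WT. Replicate 2 was the higher of each line. Pmaip1, a BH3-only death gene, stood at 9.18 and 17.3 in delta and 5.46 and 10.4 in WT (0.67 ± 0.35). Without WT 24 h replicate 1 the median was −0.03, without delta 24 h replicate 2 it was 0.08, and without the other 24 h libraries it was 0.61 (delta replicate 1) and 0.76 (WT replicate 2).

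The integrated stress response, with its amino acid genes, had a median of −0.15 log2 units, with 14 of 19 tested members below 0 and 0 called. The median was 0.03 when WT 24 h replicate 1 was left out and −0.01 when delta 24 h replicate 2 was. Asns, asparagine synthetase, stood at 70.0 and 62.6 FPKM in delta and 98.4 and 88.4 in WT (−0.49 ± 0.20). Ddit4, an inhibitor of mTORC1, lay on the other side, at 28.3 and 45.1 FPKM in delta and 18.6 and 29.2 in WT (0.59 ± 0.35). In the Myc network Mycn stood at 71.4 and 73.8 FPKM in delta and 51.7 and 51.2 in WT (0.49 ± 0.21), while Myc differed by −0.10 and the list's 10 members had a median of −0.04 (0.12 without WT 24 h replicate 1). The 22 genes of G2 and mitosis had a median of 0.09, 17 of them above 0; Aurkb, a mitotic kinase, was the lowest, at 27.5 and 26.8 FPKM in delta and 36.2 and 37.6 in WT (−0.43 ± 0.15). In the other 17 lists with tested members, 0 of 202 members were called and the medians lay between −0.15 and 0.14.

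Outside the lists, the genes with the largest difference in both pairs, ranked by the smaller of the pair, were named. After Fgf5 came Ap1m2, a subunit of the AP-1 clathrin adaptor of epithelial cells, at 17.5 and 18.1 FPKM in delta and 7.68 and 8.93 in WT (1.02 ± 0.37). It was not a difference of 24 h alone, since Ap1m2 stood at 15.7 and 13.6 FPKM in delta and 7.41 and 7.15 in WT at 12 h and at 40.0 and 18.5 in delta and 19.9 and 10 in WT at 0 h. Gadd45g, a gene of growth arrest and DNA damage responses, stood at 83.4 and 82.6 FPKM in delta and 44.7 and 49.7 in WT (0.80 ± 0.38), against 0.44 log2 units at 12 h and −0.19 at 0 h. Galnt6, a transferase that starts O-glycans, stood at 6.88 and 13.6 FPKM in delta and 3.39 and 6.45 in WT (0.91 ± 0.34). The differences of Efs, Olfr307, Mup6, Snord69, Vrtn, Nudt14, Pim2 and Gstt2 ran from 0.60 (Pim2, a kinase gene) to 1.07 log2 units (Efs, a Cas family adaptor).

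Besides Tcf15, Mest and Nanog, the 12 lowest by the same ranking were Calcoco2, Aard and a set of RNAs, most of which normally lack a long poly(A) tail. Calcoco2, known in human cells as an autophagy receptor, stood at 4.25 and 5.11 FPKM in delta and 13.2 and 28.8 in WT (−1.86 ± 0.58), and it differed by −0.73 at 12 h and −1.84 at 0 h. Aard stood at 6.21 and 7.0 FPKM in delta and 14.4 and 15.0 in WT (−1.05 ± 0.26), −0.57 at 12 h and −0.83 at 0 h. Rmrp, the RNA of RNase MRP, stood at 1.92 and 2.57 FPKM in delta and 10.1 and 13.0 in WT, and Rn7sk, the 7SK RNA, at 1.57 and 2.34 in delta and 4.95 and 7.46 in WT. Mir6236, Lars2 and n-R5-8s1, which hold rRNA or rRNA-like sequence, differed by −2.52, −1.65 and −2.43 log2 units, and Rpph1, the RNA of RNase P, by −1.61. The mitochondrial tRNA mt-Tn stood at 4.57 and 4.36 FPKM in delta and 12.1 and 16.1 in WT. At 0 h Rmrp, Rn7sk, Mir6236, Lars2, n-R5-8s1 and Rpph1 had higher values in delta, by 2.53 (Lars2) to 4.28 log2 units (n-R5-8s1), when rRNA and rRNA-like genes took 8.12% and 1.29% of reads in delta and 0.338% and 0.655% in WT. Selection with oligo-dT should leave little of these RNAs, and the part of carry-over in their differences was not tested.

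A long stretch of chromosome 14 moved with a single WT library. The 247 genes tested on chromosome 14 between 50 and 80 Mb had a median difference of 0.28 log2 units, 0.05 in pair 1 and 0.52 in pair 2. Between replicates (2 minus 1) their median was −0.02 in delta and −0.46 in WT, so that WT replicate 2 was the library that stood low. Efs and Sall2 lie in this stretch; Efs stood at 13.0 and 20.1 FPKM in delta and 6.75 and 7.66 in WT. No list described had more than 1 member there, and without those genes the formative factors had a median of 0.30 and the naive markers one of −0.30. The 26 genes tested on chromosome 1 between 190 and 200 Mb went the same way. Their median was −0.28 between WT replicates and −0.03 between delta replicates (2 minus 1), with −0.11 in pair 1 and 0.30 in pair 2.

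**Figure D4:**
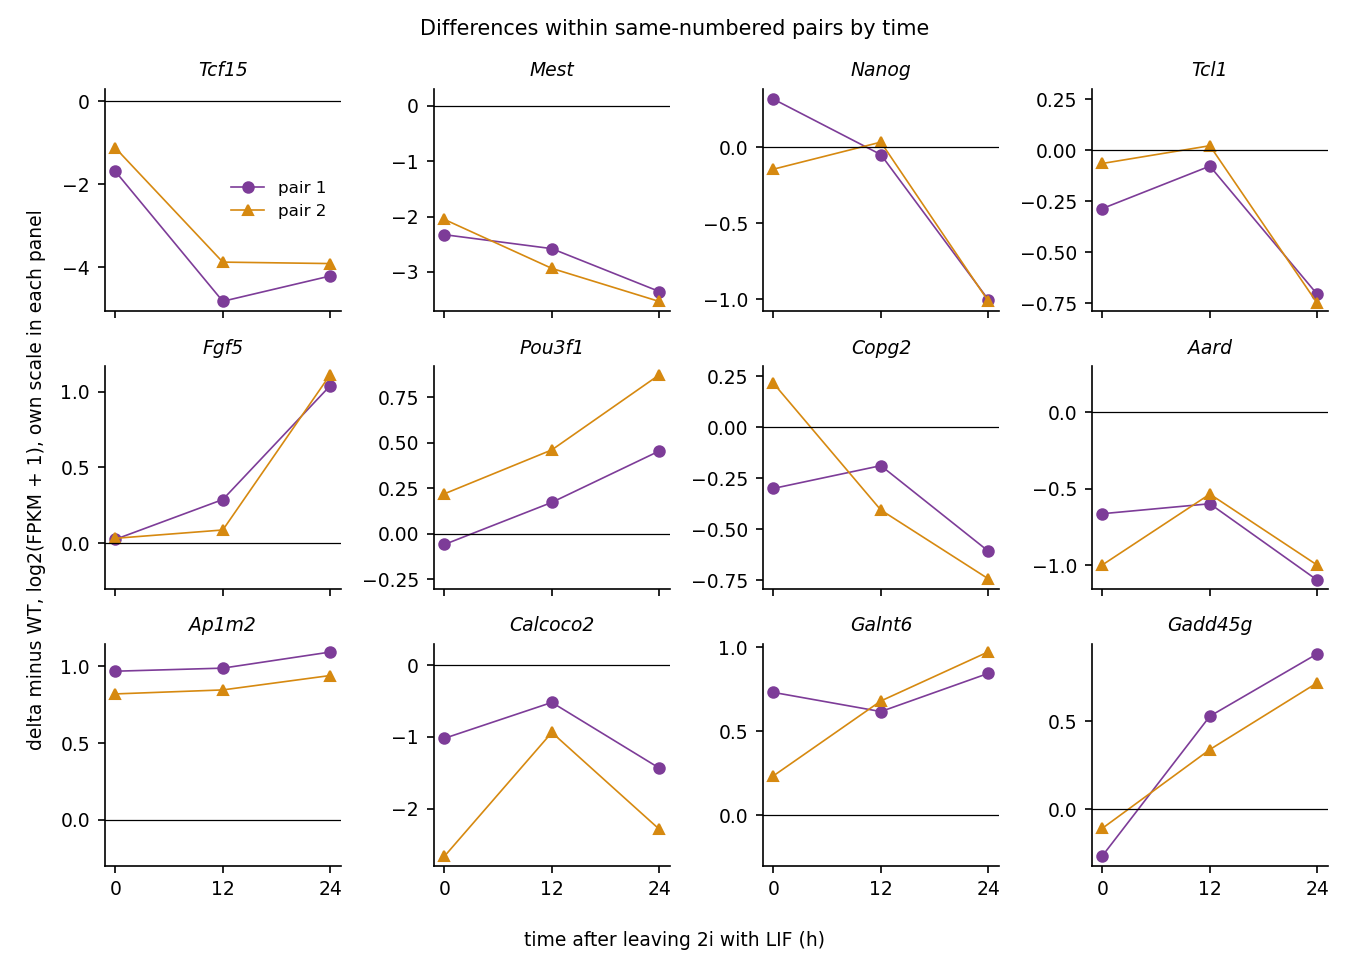
Difference within pair 1 and pair 2, delta minus WT in log2(FPKM + 1), at 0, 12 and 24 h for 12 named genes, each panel with its own scale. Mest, Aard, Ap1m2 and Calcoco2 are off 0 in both pairs at every time, whereas Nanog, Tcl1 and Fgf5 are near 0 at 12 h and off it in both pairs at 24 h. For Fgf5 all values at 0 and 12 h were below 1 FPKM, where this scale understates a change.

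Whether a difference was particular to 24 h was tested as the difference between the lines at 24 h minus that at an earlier time. Against 0 h, limma called 0 genes in either direction (0.0%); 61 genes (0.436%) on the higher side and 77 (0.551%) on the lower had an unadjusted p under 0.05. With voom weights on recovered reads 0 were called, and 54 (0.386%) and 67 (0.479%) had such a p. Against 12 h it again called 0 (0.0%), with 34 (0.243%) and 28 (0.2%) at that p, and voom 0, with 15 (0.107%) and 23 (0.165%). For Tcf15 the difference at 24 h minus that at 0 h was −2.65 ± 0.67 (SE), and for Mest it was −1.25 ± 0.28, each with an adjusted limma p of 1.0. Of the 104 genes with both 24 h pairs over 0.5 log2 units higher in delta, 58 (55.8%) were higher in both pairs at 12 h and 33 (31.7%) at 0 h; over all genes tested these shares were 28.9% and 23.3%. Of the 156 lower, 94 (60.3%) were lower in both pairs at 12 h and 57 (36.5%) at 0 h, against 24.4% of all genes at each time.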

How the data were processed

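RNA was oligo-dT selected from 1 µg total RNA and sequenced from delta and WT cells at 0, 12 and 24 h, in duplicate. The authors deposited FPKM values for 47729 genes in 12 libraries. Per the submitters' processing notes, the tools were featureCounts 1.5.1, STAR 2.5.2b, cutadapt without a version and edgeR 3.16.5, and the build mm10, with no role or order stated. From the FPKM steps whole reads were recovered for 28657 of the 28657 genes above 0 (100.0%, within 0.01 reads). For 22964 of them the annotated gene length gave whole reads. For the other 5693 the smallest length that made all 12 libraries whole was searched for. The full share was therefore partly forced, and the reads of those genes may be too low. Libraries held 9740851 to 17571255 recovered reads, which limits the precision of low genes.

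Genes that reached 1 FPKM in 2 or more libraries (13981) were fitted as log2(FPKM + 1) with limma 3.58.1 (R 4.3.3), with 1 mean for each of the 6 groups and a trend of variance with mean; prior and residual degrees of freedom were 3.11 and 6. Calls between the lines were counted over all genes only for the 24 h contrast and its difference from the other times. From the same fit, the 0 h and 12 h contrasts were given for some named genes and lists. The WT change from 0 h to 12 h was used to group genes. All p-values are two-sided, adjusted by Benjamini-Hochberg over all genes tested. The titles number the replicates 1 and 2 in both lines; deviations of same-numbered libraries correlated across 13981 genes by 0.702 (0 h), 0.28 (12 h) and 0.369 (24 h), so they were treated as pairs in an alternative fit. Named genes were the targeted gene, its neighbours, called genes, the 12 highest and 12 lowest by the smaller of both pair differences (libraries not overlapping, mean of at least 5 FPKM in the higher line, no predicted gene or pseudogene) and up to 4 members of a list with the smallest p; other members were named as examples after their values were seen. The members and the 40 gene lists were chosen with earlier results of these data known. Some genes are in more than 1 list, among them Lef1, Etv4, Dnmt3b, Krt18, Bmp4 and Id4. Alternatives were a pseudocount of 0.1, other filters, replicate blocks, the 24 h libraries alone, each library left out and, added after seeing the data, voom on recovered reads and leaving out 0 h libraries. The fit was tested on simulated data. Promoters and the microRNA are from RefSeq (GRCm38.p6), and gene positions from GENCODE M21. Figures and summaries used Python 3.11.15, numpy 2.4.6, pandas 2.3.3 and matplotlib 3.10.9. A few genes that the rule names are not reported here.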

Additional observations from a re-analysis of the deposited data

How the results depend on the processing

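Mest kept its direction and its call in every setting run except the fit of the 24 h libraries alone, where 0 genes were called lower (Mest −3.44, adjusted p = 0.0528, with only 2 residual degrees of freedom); without each library in turn it ran from −3.53 to −3.36 log2 units. Tcf15 kept its direction in every setting. It was called with the replicate block (−4.06, adjusted p = 0.00122; 2 genes lower), with a block within each time (−4.06, 0.0277; 2 lower), with voom on recovered reads and the block (−4.41, 0.000236; 2 lower) and without the minimum level (−4.06, 0.0447). Leaving out each library in turn gave Tcf15 differences from −4.47 to −3.64 (adjusted p from 0.0458 to 1.0) and 1 to 2 genes lower. The blocks changed no other call among the named genes.

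Without the minimum level, 12 genes were higher and 8 lower in delta at 24 h. Against 0 h the difference was then called higher for 3 genes and lower for 6, and against 12 h higher for 3 and lower for 3; low values enter that fit, and the cause was not tested. Of the values of named genes other than Tcf15 and Mest under the alternatives, 2412 kept direction and side of the threshold and 2 changed sign: Id1 (−0.63 to 0.10 over the libraries left out; 0.10 without WT 24 h replicate 1) and Krt18 (−0.063 to 1.14; −0.063 without WT 24 h replicate 2). Of the list medians, 896 moved by less than the spread between pairs and 79 by more. With 2 libraries per line, differences near the median SE of 0.28 log2 units were not detectable, and some far larger ones were not called either. Without a replicate block, the fit of all 12 libraries left Nanog (−1.01), Fgf5 (1.08) and Tcf15 (−4.06) uncalled at 24 h. A gene without a call may therefore still differ between the lines.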

Other observations

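Genes whose difference passed 0.5 log2 units in all 6 replicate pairs, over 0, 12 and 24 h, were picked after their values were seen. There were 5 higher in delta (Ddit4, Ap1m2, Mup6, CAAA01147332.1 and Gm25908) and 7 lower (Tcf15, Mest, Calcoco2, Aard, Gm14104, Ly6a and Ahnak), of 13981 tested. At 24 h Ly6a, a surface antigen gene, averaged 11.9 FPKM in delta and 25.1 in WT, and Ahnak, a large scaffold protein gene, averaged 1.16 in delta and 2.47 in WT.

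Genes that changed in WT cells over the first 12 h were also followed at 24 h. The change itself was that between the WT libraries of 0 h and 12 h. Its adjusted p came from the fit of all 12 libraries, so the spread and the filter behind the choice included those of 24 h. Of 265 genes that fell in WT between 0 h and 12 h, 17.7% were higher in both 24 h pairs in delta and 42.6% lower, with a median difference between delta and WT of −0.06 log2 units. For the 298 that rose, 27.9% were higher and 37.6% lower, with a median of −0.04. All 13981 genes had 28.2% higher and 27.0% lower, with a median of 0.00.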
